A study of Mus musculus with 8 samples.

Results

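The proteasome is the barrel-shaped protease that degrades ubiquitin-tagged proteins in the cytosol and nucleus. Its core particle is a stack of alpha rings, which gate the entry, and beta rings, which hold the catalytic sites. The regulatory particle caps the core, where its base unfolds the substrate with a ring of ATPases and its lid removes ubiquitin. In leukocytes and under interferon-gamma, the beta subunits Psmb8, Psmb9 and Psmb10 can take the places of the constitutive catalytic subunits Psmb5, Psmb6 and Psmb7, which forms the immunoproteasome and changes the peptides available to MHC class I.

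The genes described here are all those whose name on the array begins with Psm, followed by a letter from a to g and a digit, on probes that are not controls. This rule used names only. It found 44 genes of 28786 gene names on the array, carried by 67 probes. They are 8 core alpha genes, 7 core beta genes, 3 immunoproteasome genes, 17 regulatory particle genes, 3 chaperones of particle assembly, and 5 activators or inhibitors. The remaining gene, Psmc3ip, encodes a meiotic recombination factor and is not a proteasome subunit, but the rule took it in.

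RNA came from Ly-6C-high monocytes, a phagocyte subset of the blood with a reservoir in the spleen, which the series compared between these sites. The mice were healthy, untreated female C57BL/6 animals aged 8 to 12 weeks on chow. Both groups were sorted as CD11b-high, Ly-6C-high cells low for CD90, B220, CD49b, NK1.1, Ly-6G, F4/80, I-Ab and CD11c. There were 4 blood and 4 spleen samples of 1000 cells each, from a group of 4 mice, and 5 ng of RNA per sample was amplified for 1-colour arrays. Values are the authors' log2 table values, so a difference of 1 is a 2-fold difference. All differences are spleen minus blood. Both tissues of each mouse were taken, per the design text of the series, but no label ties a sample number to a mouse. The tissues were therefore compared as unpaired groups, and p-values reflect only how far these samples scatter.

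The deposited scanner files of blood 1, blood 2 and blood 3 ranked their probes differently from the table columns of the same samples, with rank correlations of 0.842 to 0.872. Those of blood 4 and the 4 spleen samples matched at over 0.99. The columns of blood 1, blood 2 and blood 3 each correlated more highly with the file of another sample, at 0.912 to 0.919. The matching columns reached 0.910 to 0.924 with the file of another sample, so values of this size do not mark a match. Which source holds the intended arrays is not stated, so results from all 8 scanner files carry this uncertainty. The counts and medians of most groups of genes are therefore also given for the 5 matching arrays, among which blood is represented by 1 array. The monocyte markers Itgam (12.11 in blood and 12.11 in spleen), Csf1r (13.14 and 13.30) and Ccr2 (14.10 and 13.68) had high signals in both tissues. Of 17 tested neutrophil genes, 15 were higher in spleen, 8 of them at an unadjusted p under 0.05 (47.1% of those tested, against 5.43% of all genes). The log2 of the summed signal of the neutrophil genes ran from 12.81 to 13.38 in blood and from 15.55 to 16.87 in spleen. Of 16 platelet genes, 12 were lower in spleen, 3 of them at an unadjusted p under 0.05 (18.8% of those tested): Pf4 (-2.66), Gng11 (-1.81) and Myl9 (-1.34). The sums, which mostly reflect the bright probe of Itgb3, were 16.20 to 16.51 in blood and 15.80 to 16.40 in spleen. Of 11 red pulp macrophage genes, 8 were higher in spleen, 4 of them at an unadjusted p under 0.05, and Axl was lower at that level (-0.54). The genes at that level were 45.5% of those tested. The sums were 13.31 to 13.68 in blood and 13.83 to 14.19 in spleen. No gene of the monocyte (11 tested), B cell (11), T cell (12) and NK cell (3) lists had an unadjusted p under 0.05. Of the dendritic (9) and erythroid (5) lists 1 gene each did, which is 11.1% and 20.0% of those tested. The part of these cells in the proteasome values was not tested, and in sorted bulk samples a change in the mix of cells cannot be told apart from a change within them.

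The probes of the catalytic subunits are shown because each immunoproteasome gene is set beside the constitutive gene whose product it replaces, and close relatives could share signal. Capitals mark the longest run that the pair of probes has in common, which was 8 bases for Psmb8 and Psmb5, 7 for Psmb9 and Psmb6, and 6 for Psmb10 and Psmb7. At the best offset without gaps, the pairs had 31, 27 and 23 letters of 60 in common. Sequences run 5′ to 3′ and are those in the scanner files, with positions on the mouse build mm7.
Psmb8, chr17:32280668-32280727, plus strand: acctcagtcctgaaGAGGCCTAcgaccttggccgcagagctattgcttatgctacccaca
Psmb5, chr14:49480764-49480823, minus strand: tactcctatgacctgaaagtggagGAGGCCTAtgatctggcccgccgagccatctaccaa
Psmb9, chr17:32262147-32262206, minus strand: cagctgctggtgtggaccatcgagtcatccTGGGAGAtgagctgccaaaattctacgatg
Psmb6, chr11:70609086-70609145, plus strand: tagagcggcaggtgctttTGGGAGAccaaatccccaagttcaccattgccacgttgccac
Psmb10, chr8:104534632-104534691, minus strand: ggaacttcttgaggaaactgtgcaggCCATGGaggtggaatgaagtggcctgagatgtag
Psmb7, chr2:38620757-38641176, minus strand: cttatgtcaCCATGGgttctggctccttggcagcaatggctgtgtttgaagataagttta

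The probe of Psmb7 spans far more of the genome than its own 60 bases, so it crosses at least 1 intron. The positions of 25 of the 67 probes were spread over introns in this way. Psmb8 and Psmb9 lie close together on chromosome 17, within the MHC region.

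No proteasome gene was shown to differ between spleen and blood monocytes, and the estimated differences were small. Of the 44 genes, 42 could be tested: they were at or above the background level of 6.8 on at least 4 arrays and had at least 3 values in each tissue. Psmb6 and Psme1 were not tested, because the table holds only 2 blood values for each. None of the 42 passed an adjusted p of 0.05 in limma's moderated test, as was so for all genes tested (0%, 0 of 18266). The lowest adjusted p among them was 0.741, for Psmd6. Of the 42, 21 were higher and 21 lower in spleen, with a median difference of 0.02, against -0.01 over all genes tested. This split depended on the source of the values: 15 of the 42 were higher on the 5 matching arrays of the table (median -0.07), 19 on their scanner files (median -0.04), and 30 with all 8 scanner files at the 75th percentile (median 0.24). The unadjusted p was under 0.05 for 1 of them (2.38%), against 5.43% of all genes, and the tissues did not overlap in 2 (4.76%), against 3.3%. In the table values no proteasome gene differed by 2-fold or more, and 3.22% of all genes did.

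For most proteasome genes the data also bounded the difference. The 95% interval lay within a 2-fold difference in either direction for 30 of 42 (71.4%), against 55.1% of all genes tested and 58.9% of the 4269 genes whose mean signal lay between the quartiles of the proteasome genes. The median standard deviation within a tissue was 0.35 for the proteasome genes, 0.43 for those 4269 genes and 0.45 for all genes. The median size of the difference was 0.19, against 0.22 and 0.20. The 4269 genes had mean signals of 9.79 to 12.26, while many of the 42 proteasome genes lay outside that range. The sets were thus not matched in signal, and a lower spread of the proteasome genes at equal signal was not shown. For the other 12 genes the interval reached past 2-fold. In 11 of these it also included 0, so a difference of that size could not be told from none, and the remaining gene was Psmd6.

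**Figure D1:**
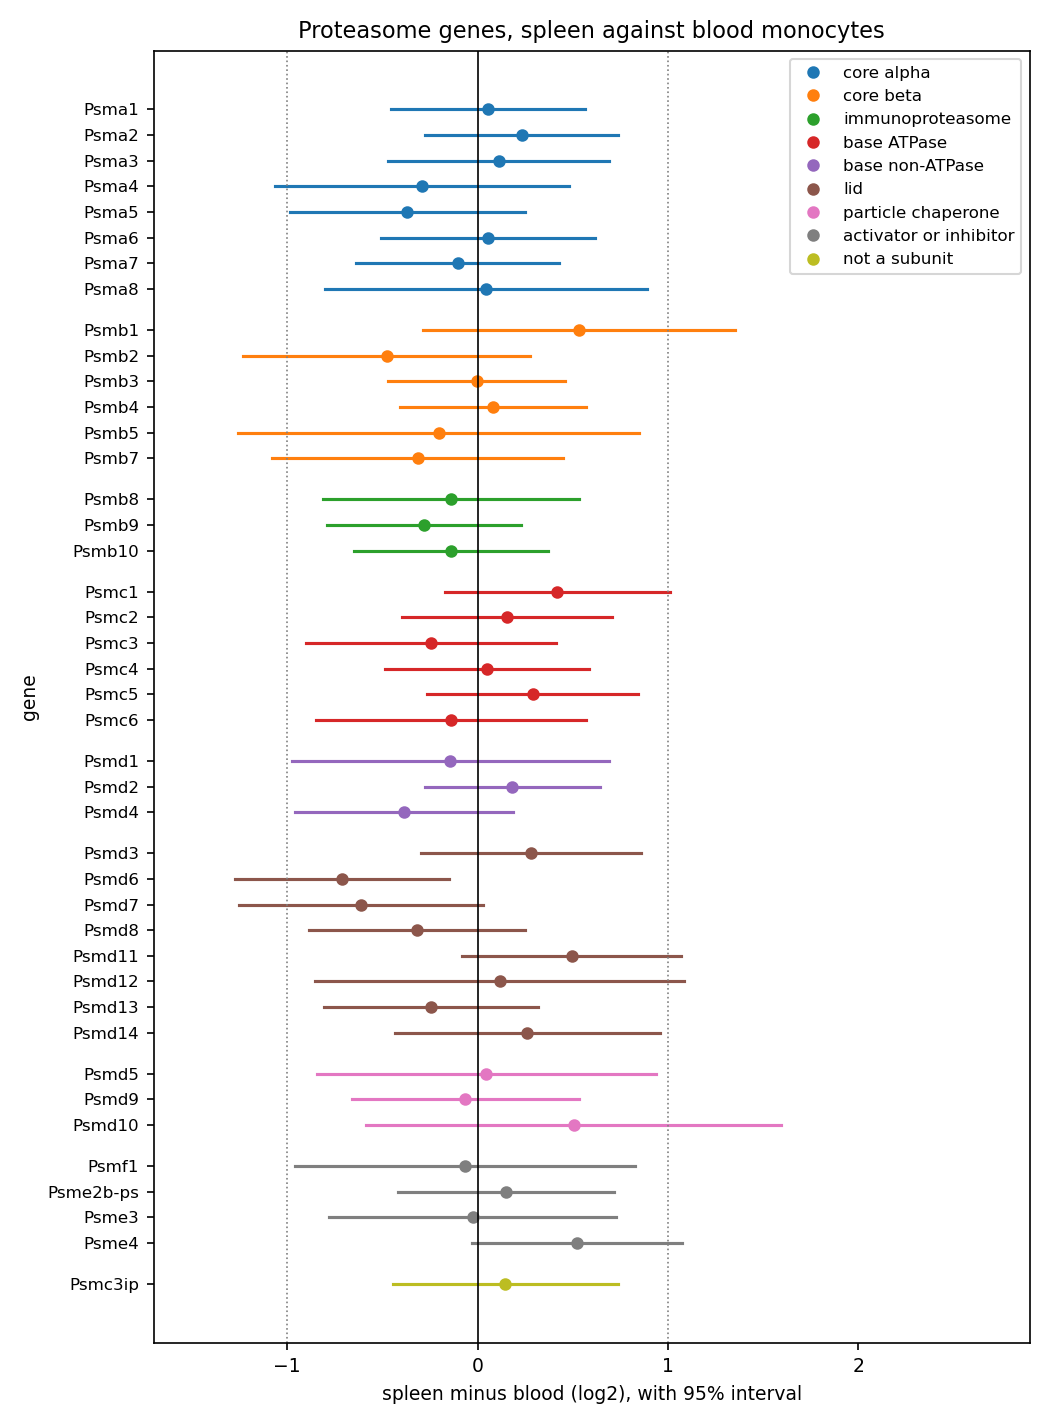
Difference between spleen and blood (log2, horizontal) for the 42 tested genes, coloured by role, with 95% intervals from limma as lines and 2-fold as dotted lines. Psmd6, at -0.71, has the only interval that does not reach 0, and the 30 intervals between the dotted lines are those within 2-fold.

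**Figure D2:**
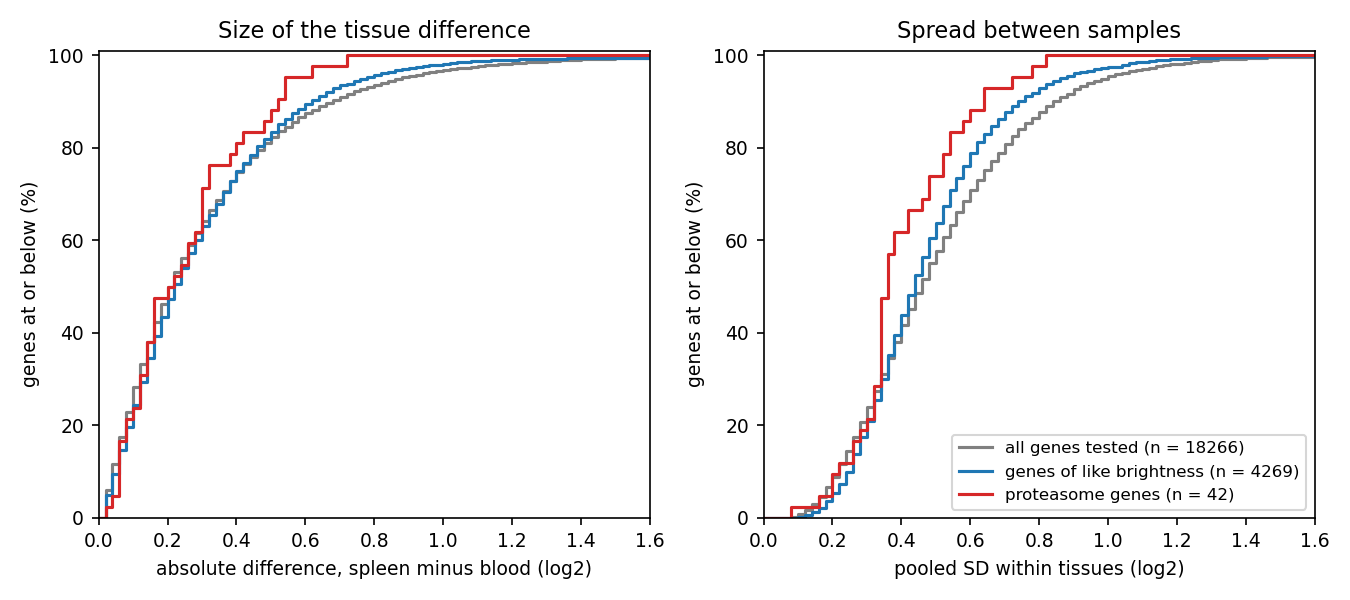
Share of genes (percent, vertical) at or below a given size of tissue difference (left, log2) and at or below a given pooled standard deviation within tissues (right, log2). The 42 proteasome genes lie close to the other genes on the left for small differences and to the left of them on the right, with medians of 0.35 against 0.43 and 0.45. The genes of like brightness, at 0.43, span only the middle signals of the 42, so these sets are not matched in signal.

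The catalytic beta subunits cut the substrate, and the constitutive ones did not differ between tissues beyond the spread of samples. Psmb5, the chymotrypsin-like subunit, had values of 11.14, 12.60, 10.84 and 11.87 in blood samples 1 to 4 and of 10.65, 11.94, 10.87 and 12.17 in spleen samples 1 to 4. Samples 2 and 4 were high and samples 1 and 3 low in both tissues, and the tissues overlapped. The difference was -0.20 (SE 0.47, 95% interval -1.26 to 0.85). Psmb7, the trypsin-like subunit, had 12.39, 11.62, 12.75 and 12.19 in blood and 11.81, 11.34, 12.70 and 11.85 in spleen. Sample 3 was the highest and sample 2 the lowest of each tissue. The difference was -0.31 (SE 0.34, 95% interval -1.08 to 0.45).

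Psmb6, the caspase-like subunit, had table values of 14.04 in blood 3 and 14.53 in blood 4, and of 14.30 in spleen 2 and 14.28 in spleen 4, with the other cells empty. Both spleen values lay between the blood values. On the scanner files of the matching arrays, as log2 signal minus the array's 75th percentile, it was 5.48 in blood 4 and 5.52, 5.35, 5.72 and 5.28 in spleen samples 1 to 4. The single blood array thus lay within the spleen range.

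The 3 immunoproteasome genes were all slightly lower in spleen, by 0.14 to 0.28. None of these differences passed the test, and the tissues overlapped in each gene. Psmb8 had 12.87, 12.44, 13.09 and 12.29 in blood samples 1 to 4 and 12.31, 12.96 and 12.32 in spleen samples 2 to 4, with spleen 1 empty. The tissues overlapped, and the difference was -0.14 (SE 0.29, 95% interval -0.81 to 0.53). A second Psmb8 probe gave -0.03.

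Psmb9 had 14.62, 14.33, 14.09 and 14.07 in blood and 13.84, 14.36, 13.98 and 13.79 in spleen. The value of spleen 2 exceeded those of 3 blood samples, and the difference was -0.28 (SE 0.23, 95% interval -0.79 to 0.23). Psmb10 had 13.89, 14.27, 13.94 and 13.95 in blood and 13.98, 13.99 and 13.66 in spleen samples 2 to 4. Here blood 2 was the highest and spleen 4 the lowest sample. The difference was -0.14 (SE 0.22, 95% interval -0.65 to 0.37).

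All 3 intervals lay within 2-fold, and the direction depended on the source of the values. On the 5 matching arrays of the table the median of the 3 genes was -0.07, with 1 higher and 2 lower. On their scanner files it was 0.11, with 2 higher and 1 lower, and with all 8 scanner files at the 75th percentile it was 0.17. In the pair of arrays from the same slide, spleen 4 minus blood 4, it was -0.28.

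**Figure D3:**
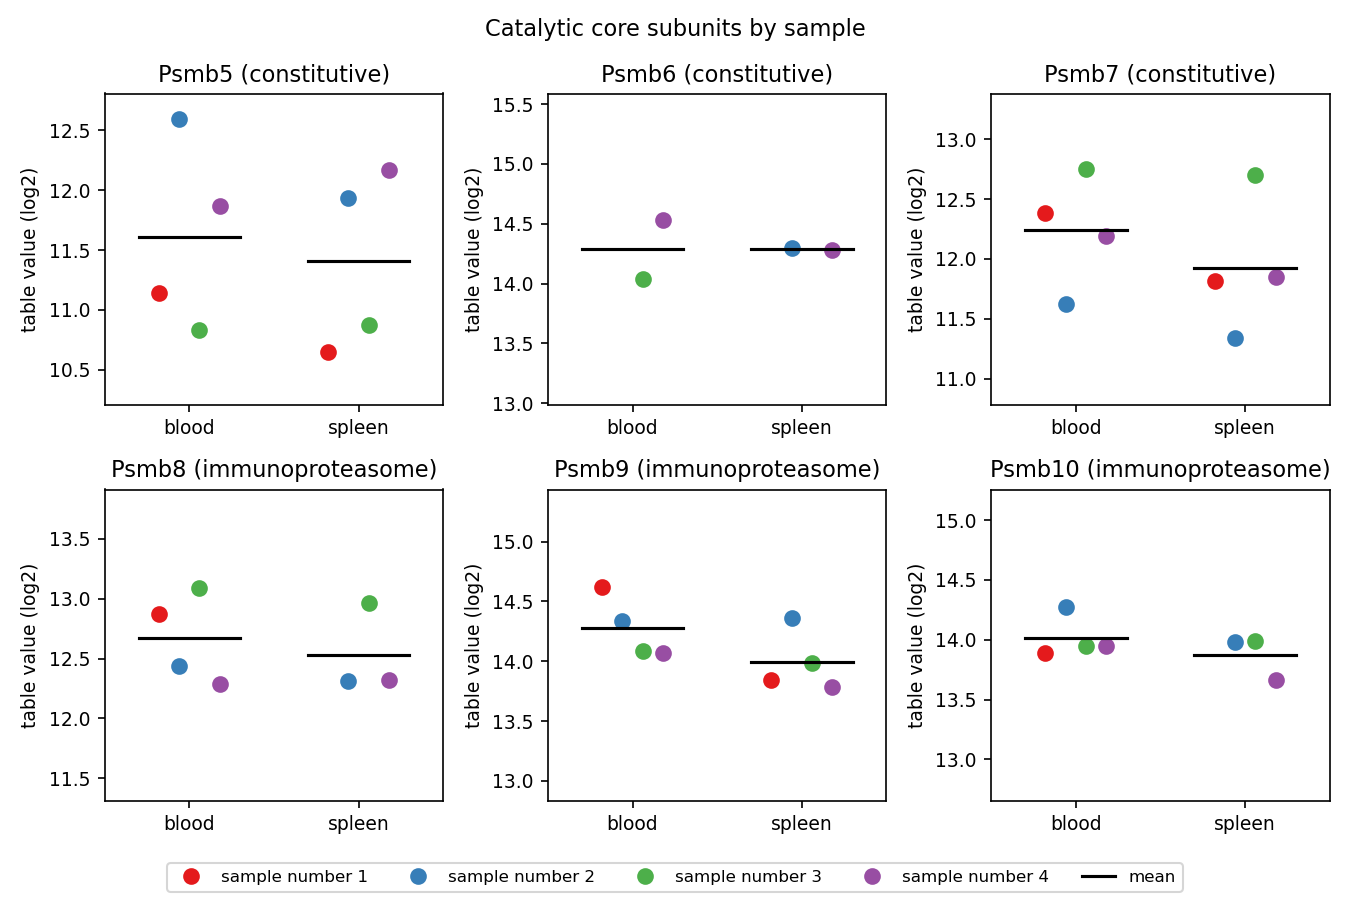
Table values (log2, vertical) of the constitutive catalytic genes Psmb5, Psmb6 and Psmb7 and of the immunoproteasome genes Psmb8, Psmb9 and Psmb10, by tissue. Points are samples, coloured by sample number, and bars are means; in Psmb5 and Psmb7 the same numbers are high or low in both tissues, with Psmb5 at 12.60 in blood 2 and 11.94 in spleen 2.

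The difference between an immunoproteasome gene and the subunit it replaces, taken within each sample, did not shift between tissues beyond its spread. For Psmb8 minus Psmb5, the mean changed by -0.19 from blood to spleen, with standard deviations of 1.12 over 4 blood samples and 1.06 over 3 spleen samples. For Psmb10 minus Psmb7, it changed by 0.14, with standard deviations of 0.63 and 0.68. These shifts compare changes and not the amounts of the subunits, since different probes are not on a common scale. Psmb9 with Psmb6 had too few values.

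The non-catalytic beta genes Psmb1 to Psmb4 form the rest of the beta ring. Psmb1 was at 0.53 (SE 0.37) and Psmb2 at -0.48 (SE 0.33), the highest and the lowest differences of the core, and both intervals included 0. On the matching scanner files Psmb1 was at 0.95. Psmb3 and Psmb4 were at -0.01 and 0.08, with intervals of -0.47 to 0.46 and -0.41 to 0.57. These latter values are among the most closely bounded of all the members. Of the 6 tested constitutive beta genes, 2 were higher and 4 lower, at a median of -0.10. On the 5 matching arrays of the table, 1 was higher and 5 lower, at a median of -0.18.

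The alpha genes build the outer rings and the gate of the core. Of the 8, 5 were higher and 3 lower. Their median was 0.05, with a range from -0.37 (Psma5) to 0.23 (Psma2). On the 5 matching arrays the direction turned, with 2 higher and 6 lower from either source and medians of -0.11 in the table and -0.10 in the scanner files, while all 8 were higher with all scanner files at the 75th percentile (median 0.34). The interval lay within 2-fold for 7 of 8, with Psma4 as the exception. Psma8, which encodes a testis-specific alpha subunit, had signals close to the background level, from 6.80 to 8.51, and differed by 0.05 (SE 0.38).

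In the base of the regulatory particle, the 6 ATPase genes Psmc1 to Psmc6 had a median of 0.10, with 4 higher and 2 lower. They ranged from -0.24 for Psmc3 to 0.42 for Psmc1, and 5 of 6 intervals lay within 2-fold. On the 5 matching arrays, as the table gives them, 3 genes were higher and 3 lower, at a median of 0.17. The non-ATPase base genes include the scaffold subunits Psmd1 (-0.14) and Psmd2 (0.18) and the ubiquitin receptor Psmd4 (-0.38). All 3 intervals lay within 2-fold. On the matching scanner files Psmd1 was at 0.62.

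Psmd2 was 1 of the 2 tested genes whose tissues did not overlap. It had 11.59, 11.68, 11.56 and 11.59 in blood and 11.69, 11.85 and 11.83 in spleen samples 2 to 4, with spleen 1 empty. The lowest spleen value and the highest blood value were 11.69 and 11.68, so the groups were separated by less than the range within either of them. The difference was 0.18 (SE 0.20), and the other probe of Psmd2 gave -0.01. On the matching scanner files the blood 4 value, 2.59, lay within the spleen range of 2.32 to 3.07.

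The lid holds the deubiquitinase Psmd14 and scaffold subunits around it. It had the widest range of the roles, from -0.71 for Psmd6 to 0.49 for Psmd11, with 4 genes higher and 4 lower, and only 4 of 8 intervals lay within 2-fold. On the 5 matching arrays, as the table gives them, 1 gene was higher and 7 lower, at a median of -0.18, and on their scanner files Psmd13 was at -0.86 where the table gave -0.24. Psmd6, a scaffold subunit of the lid, was the member with an unadjusted p under 0.05. It had 10.61, 9.65, 10.02 and 10.10 in blood and 9.05, 9.48, 9.56 and 9.45 in spleen. Every spleen sample was below every blood sample, and the closest were blood 2 and spleen 3.

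The difference of Psmd6 was -0.71 (SE 0.25, 95% interval -1.27 to -0.15), a signal in spleen of 0.611 times that in blood. In limma its unadjusted p was 0.019 and its adjusted p 0.741, so it did not pass. On the scanner files of the matching arrays it was at 1.03 in blood 4 against -0.04, 0.42, 0.45 and 0.42 in the spleen samples. These files hold the same arrays as the matching table columns, so their values are not a separate measurement. Only 1 probe measured it. The difference was -0.54 without blood 1 and -0.60 without spleen 1, and in neither was the unadjusted p still under 0.05. With all 8 scanner files in place of the table, 3 of them not matching it, the difference of Psmd6 was -0.05 at the 75th percentile and -0.07 after normexp and quantile normalization.

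Psmd7, another lid scaffold gene, was at -0.61 (SE 0.29) on its brightest probe, while its other probes gave 0.10 and 0.37. The probe at 0.37 had values of 6.40 to 7.72, and 4 of its 7 values reached the background level of 6.8. The largest gap given below rests on this dim probe. Psmd14 was at 0.26 on its brightest probe and at -0.59 on its other one. Disagreement of this kind was common: of 17 genes with several probes kept, the probes of 10 gave differences of opposite sign, with a median gap of 0.27 and a largest gap of 0.98, in Psmd7. This gap is as large as the differences themselves, whose median size was 0.19.

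The probes of Psmd6 and Psmd2 are printed because these are the tested genes whose tissues did not overlap, here in lower case throughout on build mm7.
Psmd6, chr14:11933069-11933128, minus strand: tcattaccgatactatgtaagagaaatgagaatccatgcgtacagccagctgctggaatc
Psmd2, chr16:20213208-20213267, plus strand: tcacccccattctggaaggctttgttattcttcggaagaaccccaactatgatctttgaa

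Among the chaperones that assemble the base, Psmd5 and Psmd9 were at 0.05 and -0.06. On the matching scanner files Psmd5 was at 0.89. Psmd10, known as gankyrin, was at 0.50 (SE 0.49), with blood values of 7.95, 8.00, 8.22 and 7.59 and spleen values of 6.93, 9.51, 8.94 and 8.40. Spleen 1 was the lowest of all samples and the other 3 spleen samples were above all blood samples. Without spleen 1 the difference was 1.01, with an unadjusted p of 0.010 and an adjusted p of 0.621 in limma.

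The activators open the core without ATP, and Psmf1 encodes a proteasome inhibitor. Psme1, the interferon-inducible activator subunit alpha, had 14.74 and 14.78 in blood 3 and blood 4 and 14.65, 14.65, 14.37 and 14.57 in spleen samples 1 to 4. Both blood values thus lay above all spleen values, but Psme1 was not tested. On the matching scanner files it was 5.82 in blood 4 and 5.50, 5.64, 5.71 and 5.52 in spleen, so that the single blood array was above all spleen arrays by a small margin. Psme2b-ps, as the array names it, was at 0.15 (SE 0.25). Its probes lie beside that of Psme1 on chromosome 14, where RefSeq places the beta subunit Psme2, and a near-identical copy exists elsewhere, so the gene measured is uncertain. Psme3, the nuclear activator, was at -0.02 (SE 0.34) and Psmf1 at -0.07 (SE 0.40). Psme4, an activator known for its part in acetylated histone degradation, was at 0.52 (SE 0.25) on its brightest probe, with its 4 probes between -0.19 and 0.52.

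**Figure D4:**
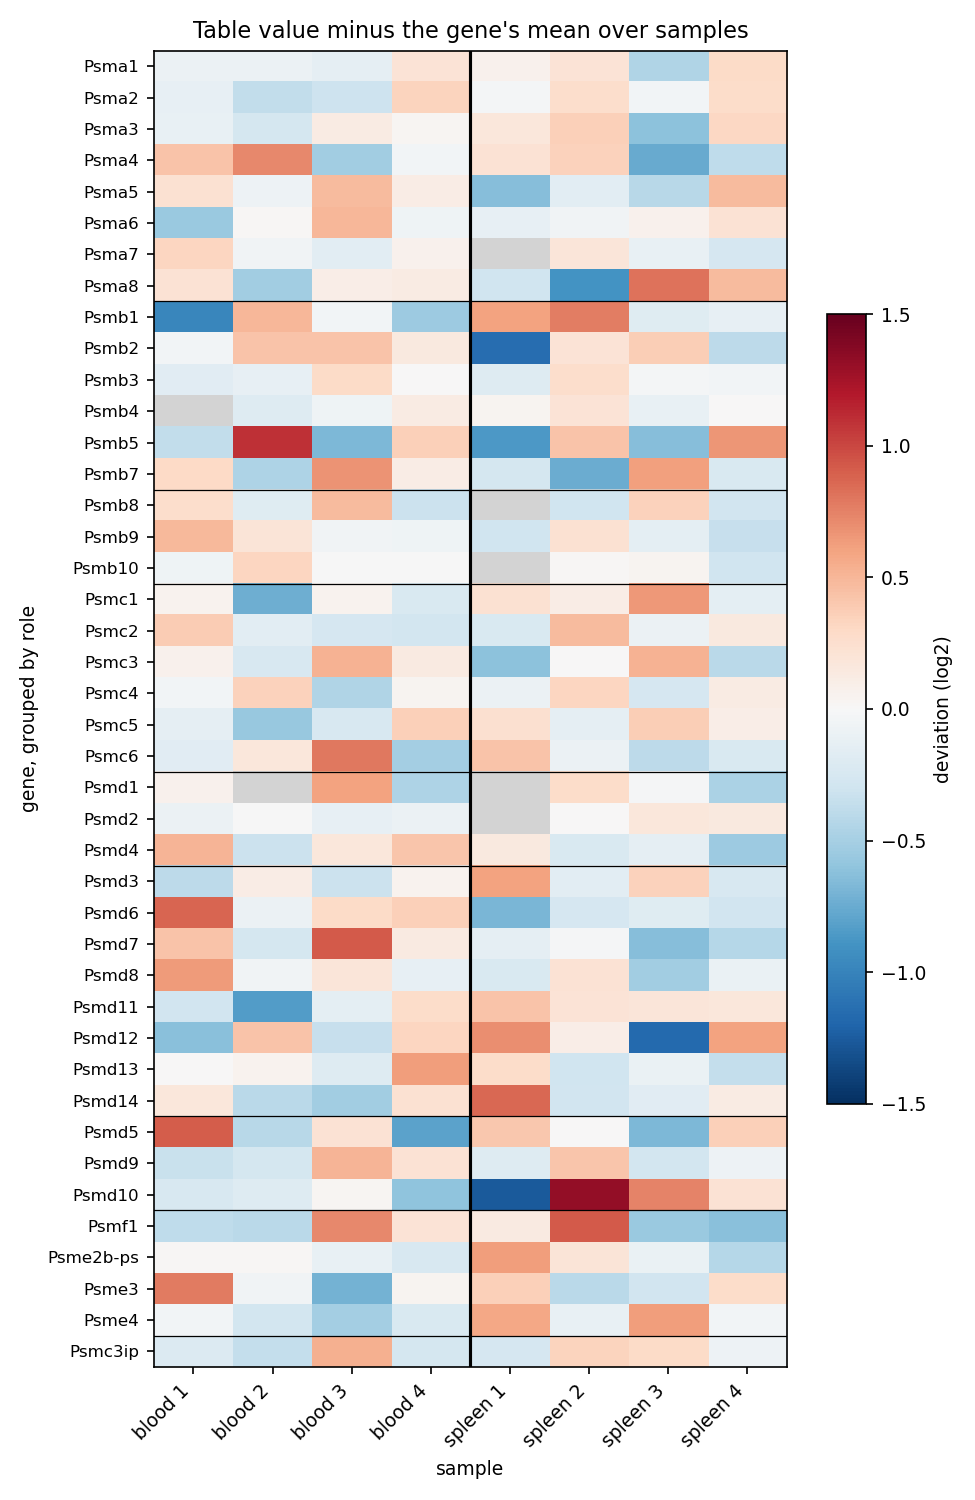
Deviation of each tested gene (rows, grouped by role) from its own mean over samples (log2, colour) in the 8 samples (columns), with grey for empty cells. Rows do not darken together in any column: the median deviation of the 42 genes runs from -0.12 in blood 2 to 0.15 in spleen 2.

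The median deviation of the 42 genes from each gene's own mean was lowest in blood 2, at -0.12, and highest in spleen 2, at 0.15, while that of all genes ran from -0.08 to 0.07. The core genes (17 tested) had a median difference between tissues of -0.10, and the regulatory particle genes (17 tested) had one of 0.05. On the 5 matching arrays of the table these medians were -0.09 and -0.03.

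The pathway around the proteasome was described from lists chosen with earlier results of these data known. In the list of ubiquitin enzymes and delivery factors, 23 genes were tested, 14 higher and 9 lower, and the median was 0.08. None passed the adjusted threshold and 2 had an unadjusted p under 0.05 (8.70%, against 5.43% of all genes), both higher in spleen. These were the ubiquitin-activating enzyme Uba6 (1.21, SE 0.33) and Nploc4 (0.84, SE 0.26), a cofactor of the segregase Vcp. Among 13 genes of proteasome-associated proteins, 8 were higher and 5 lower, and the median was 0.08. Of these 2 had an unadjusted p under 0.05 (15.4%), the proteasome-bound thioredoxin Txnl1 (0.54, SE 0.21) and Fbxo7 (0.66, SE 0.28), which encodes a ubiquitin ligase subunit that binds Psmf1.

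The next list held genes that trim, transport and load the peptides the proteasome makes for MHC class I. Of 20 tested, 6 were higher and 14 lower, at a median of -0.05. Of these, 1 had an unadjusted p under 0.05 (5.0%), the chaperone Calr (0.62, SE 0.26). Interferon-stimulated genes were mostly lower in spleen: 24 of 27, of which 9 had an unadjusted p under 0.05 (33.3% of those tested), with a median of -0.34. Ifi35 (-1.09, SE 0.25), Isg20 (-1.80, SE 0.45) and Ifit3 (-1.03, SE 0.32) had the smallest p. Proliferation genes were mostly higher, 18 of 20, of which 9 had an unadjusted p under 0.05 (45% of those tested). Their median was 1.04, with Top2a at 3.09 (SE 0.39). None of the genes in these lists passed the adjusted threshold.

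Promoter windows from 250 bases before to 50 bases after the start site, from RefSeq on GRCm38.p6, were matched by symbol to 38 genes. The symbols were those of the 44 genes, with Psme2 and Psme2b added for Psme2b-ps. Both strands were searched for short motifs by their letters. The ETS core CCGGAAG was in the windows of 13 of 38 genes (34.2%), against 9.93% of 27025 genes with a window. The GC box GGGCGG was in 22 (57.9%), Psme2 among them, against 38.2%. The box CCAAT was in 14 (36.8%), against 41.1%, and the antioxidant response element TGACNNNGC in 6 (15.8%), against 14.0%. The interferon-stimulated response element, searched as a pair of GAAA runs with any 2 bases between them, was in 4 (10.5%), against 3.99%; these were Psmb3, Psmd4, Psmd9 and Psme1. The windows of both Psmd6 and Psmd2 held the ETS core and the GC box. Their bases around the ETS core, all before the start site, follow with that core in capitals, on its other strand in Psmd2.
Psmd6, chr14:14120946-14121030, minus strand: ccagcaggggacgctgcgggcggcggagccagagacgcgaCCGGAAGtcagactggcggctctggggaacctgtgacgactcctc
Psmd2, chr16:20651586-20651651, plus strand: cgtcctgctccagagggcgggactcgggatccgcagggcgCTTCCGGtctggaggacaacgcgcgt
A match is a run of letters and does not show that a factor binds there.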

How the data were processed

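Monocytes from blood and spleen (4 samples each) were profiled on 1-colour arrays. The scanner files hold spot intensity values made with Agilent Feature Extraction 9.5.1.1, per the file headers. The deposited table holds the authors' log2 values, and limma is named in the submitters' processing notes; its version is not given in the sources used here. All column medians rounded to 7.31, so the values are read as normalized between arrays. Medians alone do not tell by which method, and neither source states quantile normalization. Probes kept had to reach 6.8, the level from which at least 95% of probes per step of 0.1 were well above background on the matching arrays, on 4 of 8 arrays. The brightest probe stood for a gene. Tissues were compared with lmFit and eBayes (limma 3.58.1 in R 4.3.3), with Benjamini-Hochberg adjustment over 18266 genes at 0.05; the script was tested on simulated data. The number of arrays limits the precision. No probe that stood for a proteasome gene was saturated on the 5 matching arrays.

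The members and lists were chosen with earlier results of these data known. The rule for named genes was every member by role, with all values for the catalytic subunits and for members with an unadjusted p under 0.05 or tissues that do not overlap, and at most 3 genes per list by smallest p; Psmd10, Psme1, the monocyte, platelet and macrophage markers and members named for their values on the matching arrays were added after their values were seen. Alternatives were the filter, the probe choice, gene names, the replicate block, variance settings, the scanner files and each array left out.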

Additional observations from a re-analysis of the deposited data

Results flagged for a closer look

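In 4 of 78 groups of 4 values among the proteasome genes, 1 sample lay far from the other 3; chance gives about 1 in 20. Psma1 was at 12.11 in blood 4, with the other blood samples between 11.77 and 11.82. Psma8 was at 7.17 in blood 2, with the others between 7.79 and 7.91. Psmb10 was at 14.27 in blood 2, with the others between 13.89 and 13.95. Psmd11 was at 12.75 in spleen 1, with the other spleen samples between 12.50 and 12.54.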

How the results depend on the processing

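No proteasome gene passed the adjusted threshold under any setting tried. Over all genes, where none passed, 1 passed when probes had to be above background on all 8 arrays, 9 with the background level 0.5 higher, 7 when the probes of a gene were averaged, 8 under a trended, robust variance, 9 with array weights, and 4 with all scanner files under either normalization; with an array left out, 0 to 3 passed. With the replicate number as a fixed block 1 gene passed, and as a random block (correlation 0.21) 13 did. The same numbers correlated at 0.09 to 0.14 and different numbers at -0.12 to 0.03. The numbers were not taken as pairs, because no label ties a number to a mouse. In the table values 1 of 42 proteasome genes had an unadjusted p under 0.05, against 5.43% of all genes. The count was 2 with no filter (4.72% of all genes), 3 with the random replicate block (7.51%) and 2 with the trend (5.33%). With all scanner files, where 44 were tested, it was 2 at the 75th percentile (8.11%) and 4 with normexp (9.06%). With an array left out it was 0 to 3 (5.16% to 5.93%). The share of all genes thus moved between settings too, so the counts alone do not set proteasome genes apart. The count without overlap, 2, was 1 with probes above background on all 8 arrays, 1 with the mean over probes, and 2 to 4 with an array left out. Among all genes the share without overlap was 3.3% in the table values. It was 3.01% and 3.29% in these first 2 settings, and 5.78% to 6.76% with an array left out. The cause of these changes was not tested. The sign of the difference turned in 6 of 42 genes with the mean over probes, in 12 with the 5 matching arrays, in 13 with all scanner files, in 13 within the shared slide and in 1 to 8 with an array left out. With all scanner files at the 75th percentile the median of the 42 proteasome genes was 0.24 and that of all genes -0.11. The count without overlap was not taken on the 5 matching arrays, which hold 1 blood array, and Psmc3ip left the test under both stricter background filters.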

Other observations

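The chaperones of core assembly carry older names on the array, outside the rule, and were found by accession. Psmg1 was at -0.61 (SE 0.45), Psmg2 at 0.22 (SE 0.43) and Psmg3 at 0.52 (SE 0.67), and none passed the test.

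In some genes, samples of the same number lay at like distances from the mean of their tissue. These genes were chosen after their values were seen. Gaps were taken after each gene's tissue mean was subtracted, so they leave out the difference between tissues. On these deviations, the mean gap between a blood and a spleen sample was 0.07 at the same number and 0.67 at other numbers for Psma4. It was 0.38 and 0.89 for Psmb5, 0.14 and 0.65 for Psmb7, and 0.07 and 0.44 for Psmb8. Psmf1 ran the other way, at 0.99 and 0.50. The gap was smaller at the same number in 22 of 41 proteasome genes (53.7%) and in 10535 of 18037 genes (58.4%).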
